A study of Mus musculus with 170 samples.

Results

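Connexins are the proteins of gap junctions, the channels through which neighbouring cells exchange ions and small molecules. A connexin hexamer in the membrane of 1 cell docks with a hexamer of the next cell, and in the heart the resulting channels carry the action potential from cardiomyocyte to cardiomyocyte. The described set was the 4 connexin genes known best from heart and vessels, Gja1 (Cx43), Gja5 (Cx40), Gjc1 (Cx45) and Gja4 (Cx37), which are 4 of the 40549 gene rows and 4 of the 20 connexin rows of the table. As background, Cx43 is the chief connexin of working ventricular muscle, Cx40 belongs to atrial, trabecular and fast-conducting muscle and to arterial endothelium, Cx45 is the early and widespread connexin of the embryonic heart, and Cx37 is the connexin of arterial endothelium. The set was selected on earlier values of these same data, namely the lower log2(TPM + 1) of Gja1 in mutant than in control cardiomyocyte-like cells and the connexin levels of control endothelial-like cells, so those values are given as a description.

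Transcripts were measured by Smart-seq2, a full-length method primed on poly(A) tails, in single cells from the ventricular part of C57BL/6 mouse hearts at embryonic day 9.5. Control embryos, which the labels call wild type, carried Dgcr8 loxP/loxP and the membrane reporter allele Rosa26 mT/mG/+ and no Cre. Conditional knockout (cKO) embryos were Mesp1 Cre/+ with the same floxed Dgcr8 and reporter alleles, so that Cre made from the Mesp1 locus removed Dgcr8 in the early mesoderm that builds the heart. Dgcr8 is the RNA-binding partner of Drosha, and together they cut microRNA hairpins out of their primary transcripts. The table held 74 control cells (35 of sequencing batch 1 and 39 of batch 2) and 69 cKO cells (35 and 34).

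The labels name no embryo, so each genotype was 1 sample. Cells of a sample are no replicates, so the differences below are given without tests. All SDs are across cells. Values are TPM (a relative abundance that sums to nearly the same total in every cell and divides by transcript length, so levels of different genes may be set side by side). A cell counted as detecting a gene at a TPM of at least 1. The sequencing depth of a cell is unknown because TPM does not keep it, and the number of genes above 0 stood in for it.

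Cells were sorted into classes by clustering on 55 marker genes, none of them a connexin. Of the 92 cardiomyocyte-like (CM-like) cells, 26 were control (18 of batch 1, 8 of batch 2) and 66 were cKO (33 of each batch). All 15 cardiomyocyte markers were detected in most CM-like cells of both genotypes. The 22 endothelial-like cells (7 and 15) and the 13 epicardial-like cells (4 and 9) were all control cells, as were 5 erythroid-like cells of batch 2. The authors picked separate single cells by hand and reported that cKO cardiomyocytes came apart more easily than control ones. By in situ hybridization they still found endocardial and endothelial markers in cKO hearts. These class counts therefore do not measure the make-up of the hearts. A further 11 cells led by mitochondrial transcripts, 8 control and 3 cKO, stayed unnamed. The endothelial-like cells had 13 of 13 endothelial markers well above the other cells but also 4 of 14 mesenchymal ones, and the epicardial-like cells had 9 of 14 mesenchymal markers beside 6 of 6 epicardial ones. The median number of genes above 0 in CM-like cells was 8477 in control and 9845 in cKO cells of batch 1, and 9704 and 7744 in batch 2, so the genotype with more genes changed with the batch. The median share of mitochondrial transcripts in TPM was 6.27% in control and 3.19% in cKO CM-like cells of batch 1 and 6.25% and 2.77% in batch 2, lower in cKO cells in both. Its part in the differences below was not tested beyond the following comparisons. Limited to cells under 15%, the Gja1 difference was −4.20. With TPM rescaled without mitochondrial transcripts, it was −4.21.

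Genotype also coincided with sex-linked transcripts. Xist was detected in 64 of 69 cKO and 3 of 74 control cells. The Y-linked Ddx3y was detected in 49 of 74 control cells, and in cKO cells in 0 of 69, a count that allows at most 4.35%. Genotype and sex therefore cannot be told apart in any comparison below. Among CM-like cells, 13 of 26 control and 20 of 66 cKO cells detected Dgcr8 itself, with means of 2.46 and 1.67 log2(TPM + 1). A value for the whole gene does not resolve the deleted part of Dgcr8, so this row checks the labels only weakly.

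Gja1 encodes Cx43, which forms most of the channels of the ventricular gap junction. It lies at chr10:56377330-56402513 on the plus strand of GRCm38. Its upstream window in RefSeq (GRCm38.p6, chr10:56377050-56377299, plus strand) is printed because it belongs to the member with the largest difference and because Jun, a subunit of the AP-1 factor, is in a list described further on.
Gja1 upstream: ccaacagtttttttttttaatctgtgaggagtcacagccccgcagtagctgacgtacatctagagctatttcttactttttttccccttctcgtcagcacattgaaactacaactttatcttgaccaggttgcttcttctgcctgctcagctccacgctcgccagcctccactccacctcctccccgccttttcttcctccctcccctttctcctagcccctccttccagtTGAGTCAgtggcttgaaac
The capitals mark a match to the AP-1 motif TGACTCA on the other strand, 19 to 13 bases before the RefSeq start. That motif, searched on both strands, occurs in 4.46% of 32851 RefSeq windows of 250 bases. The windows of Gja4 and Gja5 lack it and each hold 1 GC box (GGGCGG, in 32.7% of windows), which the window of Gja1 lacks. None of the 3 windows holds the T-box motif GGTGTGA, found in 3.33% of windows, and Gjc1 has no entry in the table used. The motifs were picked after the values were seen, and a match in letters is no evidence of binding.

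In control CM-like cells Gja1 was the most abundant of the 4 connexins and was detected in 23 of 26 cells. In batch 1 its TPM ran from 0.349 over a median of 57.6 to 365, and 15 of 18 cells detected it. In batch 2 it ran from 31.1 over a median of 245 to 554, and all 8 cells detected it. Control cells of batch 2 thus lay higher than those of batch 1, with means of 7.37 ± 1.61 (SD, 8 cells) and 5.03 ± 2.69 (SD, 18 cells) log2(TPM + 1).

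In cKO CM-like cells Gja1 was detected in 18 of 66 cells, 27.3% (95% Clopper-Pearson interval 17.03 to 39.6), against 88.5% (69.8 to 97.6) of control CM-like cells. The intervals cover counting error only. In batch 1 the cKO values ran from 0 over a median of 0.537 to 160 TPM, with 13 of 33 cells detecting the gene. In batch 2 they ran from 0 over a median of 0.273 to 413 TPM, with 5 of 33. The ranges of the genotypes overlapped in both batches. In batch 2, 29 of 33 cKO cells lay below the lowest control cell and 1 lay at or above the control median. In batch 1, 11 of 33 lay below the lowest control cell and 5 at or above the control median. No cKO CM-like cell exceeded the highest control CM-like cell of its batch.

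**Figure D1:**
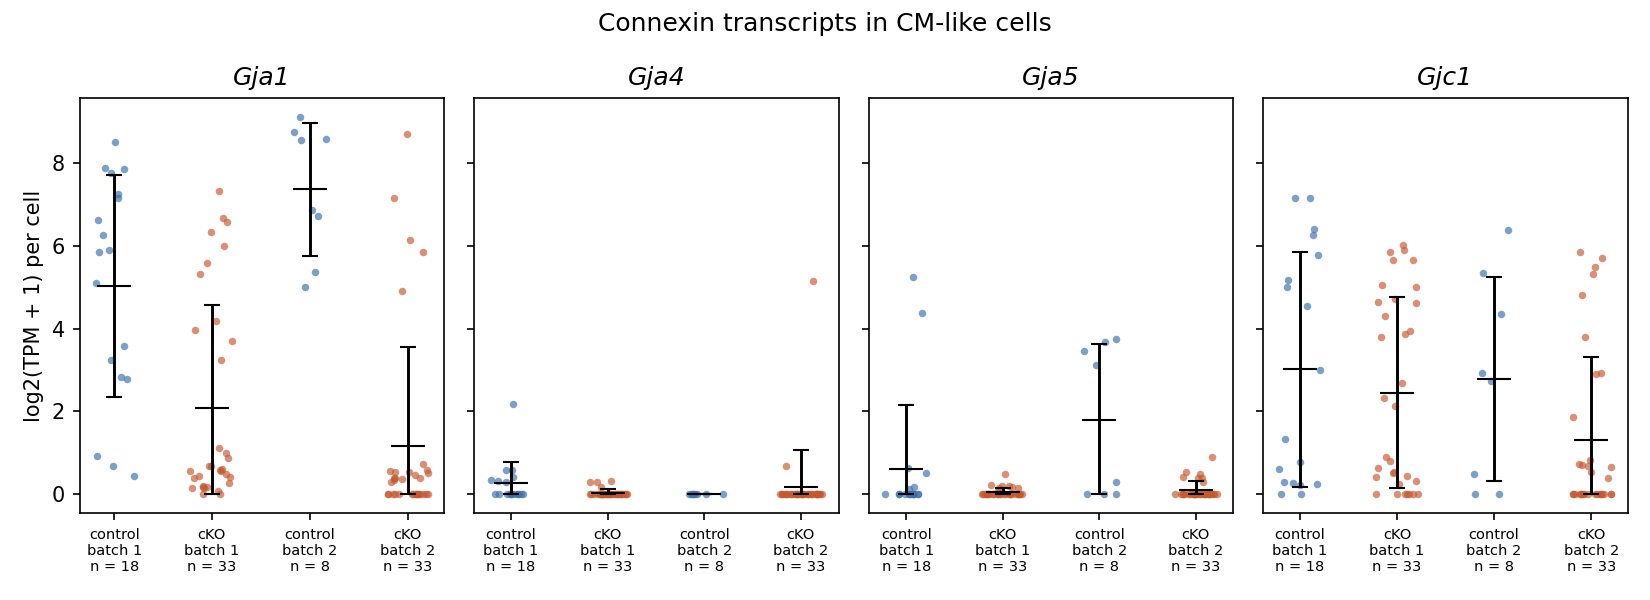
Level of each connexin in CM-like cells, as log2(TPM + 1) on the vertical axis, by genotype and batch on the horizontal axis. Each point is a cell, the horizontal bar is the mean and the whiskers are 1 SD across cells, drawn no lower than 0. Gja1 is split into cells near 0 and cells well above it, and the 8 control cells of batch 2 all lie in the upper range, whereas 28 of 33 cKO cells of that batch lie below 1 TPM.

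The mean of Gja1 was 5.75 ± 2.61 (SD, 26 cells) in control and 1.63 ± 2.46 (SD, 66 cells) in cKO CM-like cells, a difference of −4.13 log2 units. The difference was −2.96 in batch 1 and −6.19 in batch 2, where the medians over all genes were 0.14 and −0.21. Of the 15021 genes above 0 in more than 10 CM-like cells, 3.16% were lower in cKO cells by at least 1 log2 unit in each batch. Of the 4 connexins only Gja1 met this, and these are the values for which it was chosen. No other gene had a lower pooled difference. In batch 1, 8 genes lay lower than Gja1, and in batch 2, 1 did. The difference between genotypes was larger in batch 2, where control cells were higher and cKO cells lower than in batch 1, and this difference between batches was not tested.

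Most cKO CM-like cells held little or no Gja1, and fewer held larger amounts. Of the 66 cKO CM-like cells, 17 were listed at 0, 31 lay above 0 but below 1 TPM, 3 lay between 1 and 10 TPM and 15 reached 10 TPM or more. Of the 26 control CM-like cells the same bins held 0, 3, 3 and 20. Among cells that detected Gja1, the median was 51.9 TPM in 18 cKO cells and 105 TPM in 23 control cells. It was 39.2 and 75.4 TPM in batch 1 and 69.1 and 245 TPM in batch 2, so that detecting cKO cells also had the lower median in each batch. At TPM above 0, Gja1 was present in all 26 control and in 74.2% of cKO CM-like cells.

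The 18 cKO cells with Gja1 were compared with the other cKO CM-like cells by depth and markers. Their 15 cardiomyocyte markers summed to a median of 72202 TPM, against 95046 TPM in the 48 cells without Gja1. Their endothelial markers summed to a median of 36.7 against 33.1 TPM. They had more genes above 0, with a median of 9378 against 8553, and 13 of the 18 were of batch 1. Dgcr8 was detected in 8 of the 18 and in 12 of the 48. The part that depth or remaining Dgcr8 plays in the presence of Gja1 among cKO CM-like cells was not tested.

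Gjc1 encodes Cx45, the connexin that the embryonic heart makes first and that forms channels of low conductance. It lies at chr11:102799579-102819700 on the minus strand. In control CM-like cells it was the second most abundant connexin, with TPM from 0 over a median of 6.14 to 141 and detection in 15 of 26 cells (57.7%, 36.9 to 76.6). In cKO CM-like cells it ran from 0 over 0.570 to 63.8 TPM and was detected in 26 of 66 cells (39.4%, 27.6 to 52.2). The ranges overlapped almost throughout. The means were 2.94 ± 2.68 and 1.88 ± 2.22 log2(TPM + 1), a difference of −1.06, which was −0.56 in batch 1 and −1.47 in batch 2.

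Detection of Gjc1 was close in the genotypes in batch 1, with 10 of 18 control and 17 of 33 cKO cells. In batch 2 it stood at 5 of 8 and 9 of 33. Where the gene was detected, its median was 35.3 TPM in control and 24.6 TPM in cKO cells. Gjc1 thus differed in the same direction as Gja1 in both batches and by less. The cKO cells of batch 2 also had the fewest genes above 0 of the 4 groups of CM-like cells, and the part of this in the batch 2 difference was not tested.

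Gja5 encodes Cx40, a connexin of high conductance that marks atrial and trabecular muscle and the later fast-conduction system. It lies at chr3:96904693-97077416 on the plus strand. It was detected in 6 of 26 control CM-like cells (23.1%, 8.97 to 43.6), 2 of 18 in batch 1 and 4 of 8 in batch 2. The 6 cells held 7.73 to 36.8 TPM. All 6 also detected Gja1, but so did 23 of the 26 control CM-like cells as a whole.

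In cKO CM-like cells Gja5 was detected in 0 of 66, so that a share of at most 4.55% is allowed, and its highest value was 0.875 TPM. It was above 0 in 22.7% of cKO and 42.3% of control CM-like cells. The means were 0.98 ± 1.70 in control and 0.08 ± 0.17 in cKO cells, a difference of −0.90 (−0.56 in batch 1, −1.69 in batch 2). The highest cKO cell lay below each of the 6 detecting control cells, but 20 control cells were also under 1 TPM, so the groups overlapped. The pooled difference rests on those 6 cells.

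Gja4 encodes Cx37, which joins endothelial cells to each other. It lies at chr4:127311421-127314039 on the minus strand. It was near 0 in CM-like cells of both genotypes, detected in 1 of 26 control cells at 3.52 TPM and in 1 of 66 cKO cells at 34.7 TPM. The difference of means was −0.08, with −0.23 in batch 1 and 0.18 in batch 2, so its sign differed between the batches. Gja4 was above 0 in 26.9% of control and 9.09% of cKO CM-like cells, mostly below 1 TPM. The cKO cell with 34.7 TPM had 0 TPM of Cdh5, the endothelial cadherin, and 13.9 TPM of all endothelial markers together, against 998 to 4433 TPM in endothelial-like cells.

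**Figure D2:**
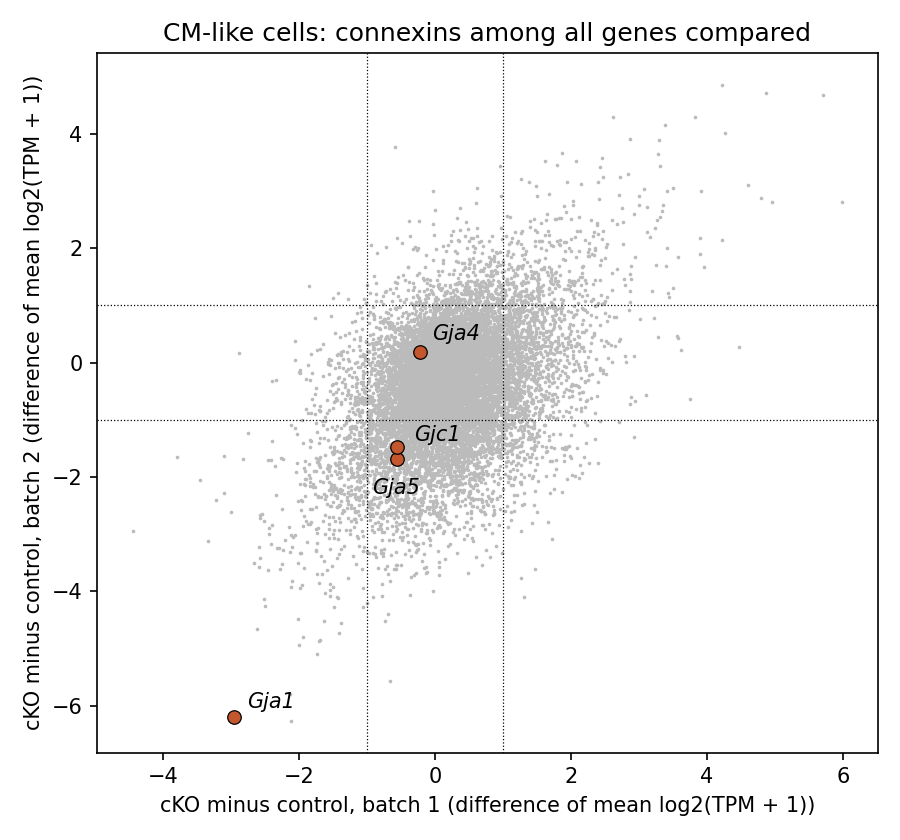
Difference of mean log2(TPM + 1) between cKO and control CM-like cells in batch 1 (horizontal axis) and batch 2 (vertical axis) for 15021 genes in grey, with the 4 connexins in orange and dotted lines at 1 log2 unit. Gja1, at −2.96 and −6.19, lies at the lower left edge of all genes, whereas Gjc1 and Gja5 lie past the line in batch 2 only and Gja4 lies near 0.

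The connexins were next counted together within each cell. At least 1 of the 4 was detected in 25 of 26 control CM-like cells and none in 1 cell (3.85%, 0.0973 to 19.6). None was detected in 31 of 66 cKO CM-like cells (46.97%, 34.6 to 59.7). This share was 11 of 33 cells in batch 1 and 20 of 33 in batch 2, against 1 of 18 and 0 of 8 control cells.

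Gja1 and Gjc1 were detected together in 14 of 26 control and 10 of 66 cKO CM-like cells. Gjc1 without Gja1 was seen in 1 control cell and in 16 cKO cells. Gja1 as the only connexin was seen in 8 cells of each genotype. Of the 18 cKO cells with Gja1, 10 (55.6%) also detected Gjc1, against 16 (33.3%) of the 48 without it. By batch this was 8 of 13 against 9 of 20 in batch 1 and 2 of 5 against 7 of 28 in batch 2. The cells with Gja1 came more often from batch 1 and had more genes above 0, and the part of either was not tested. A set of 3 connexins in 1 cell occurred in 5 control CM-like cells and in no cKO CM-like cell.

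**Figure D3:**
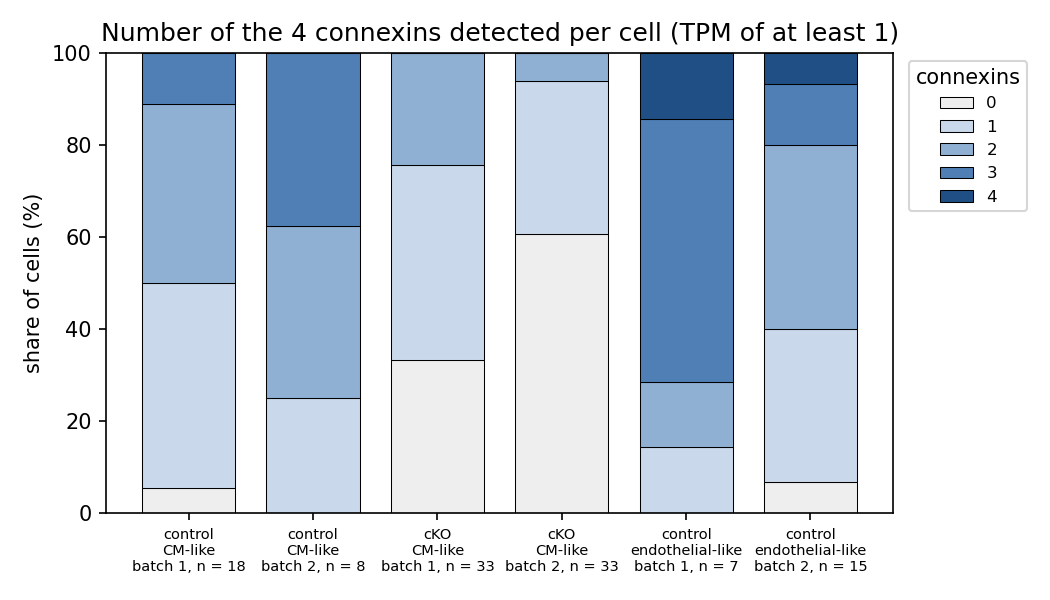
Share of cells (vertical axis, percent) that detected 0 to 4 of the 4 connexins, for CM-like and endothelial-like cells by genotype and batch. The cells with none are 1 of 18 control and 11 of 33 cKO cells in batch 1 and 0 of 8 and 20 of 33 in batch 2, and cells with all 4 appear in the endothelial-like class alone among the groups drawn.

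The make-up of the connexin pool was described by the share of each member in the summed TPM of the 4, a measure free of the other genes of a cell. It was taken in cells with a sum of at least 1 TPM, 25 control and 42 cKO CM-like cells. Gja1 held a mean of 69.2% ± 33.8 (SD) of the sum in control and 41.03% ± 40.9 in cKO cells. Gjc1 held 23.9% ± 31.9 and 52.01% ± 42.2. The difference of the Gja1 share was −28.2 percentage points pooled, −15.1 in batch 1 and −53.3 in batch 2.

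Gja1 was the larger part of the sum in 19 of 25 control and 17 of 42 cKO cells. Over all 26 control and 66 cKO CM-like cells, those with a smaller sum included, the sum had a median of 114 and 4.73 TPM, so the larger share of Gjc1 in cKO cells stood beside a lower mean level of Gjc1. When TPM was first summed over cells, Gja1 held 81.3% of the control and 63.5% of the cKO pool. A few cKO cells with much Gja1 weigh heavily in that sum, since the highest held 413 TPM.

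The remaining 16 connexin rows held little. In all 143 cells, 8 were at 0, 4 were detected in 1 to 4 cells, and 4 in 5 or more, Gjc3, Gjd4 and Gje1 among them. In CM-like cells 3 of the 16 passed the limit of more than 10 cells, and none of these was past 1 log2 unit in both batches. The lowest was Gje1 at −0.17 and the highest Gjd4 at 0.16. Gjd4 was detected in 6 cKO CM-like cells, at up to 8.02 TPM. None of the 16 had a mean in cKO CM-like cells near the mean of Gja1 in control ones. Panx1, a channel protein related in shape but not in sequence, differed by 0.08, and it was the only 1 of 3 pannexin genes to pass the limit.

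The control classes were then compared for each connexin. Control endothelial-like cells held Gja1 at 0.438 to 318 TPM with a median of 73 and detected it in 21 of 22 cells. Their mean was 6.04 ± 1.62 (SD, 22 cells), 0.29 above control CM-like cells. The sign turned between batches, with 1.25 in batch 1 and −1.44 in batch 2, as control CM-like cells of batch 2 were high. Epicardial-like cells followed at 5.45 ± 1.74 (12 of 13 cells detecting), erythroid-like cells at 4.91 ± 2.80 (4 of 5) and unnamed control cells at 2.58 ± 3.04 (4 of 8). Every step between neighbours in this order was smaller than the SD of either class. Gja1 was thus found in each control class, erythroid-like cells included. That class of 5 cells also had 1 endothelial, 1 mesenchymal and 1 epicardial marker above the other cells, beside 7 of 7 erythroid ones.

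Gja4 was the connexin that set control endothelial-like cells apart. It was detected in 10 of 22 endothelial-like cells (45.5%, 24.4 to 67.8) and in 1 of 26 control CM-like cells. In batch 1 it ran from 0 over 128 to 720 TPM, with 5 of 7 cells detecting it. In batch 2 it ran from 0 over 0 to 63.7 TPM, with 5 of 15. The mean was 2.68 ± 3.23 against 0.18 ± 0.45, a difference of 2.50 (5.13 in batch 1, 1.42 in batch 2). Of 13085 genes compared between these classes, 10.2% were higher in endothelial-like cells by at least 1 log2 unit in each batch and 5.34% were lower. Gja4 was 1 of the 4 connexins among the higher genes, and no connexin was among the lower. The levels in endothelial-like cells are named in the choice of the set, so they too are a description.

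The order of Gja4 after endothelial-like cells was epicardial-like at 0.31 ± 0.80 (1 of 13 cells), unnamed at 0.19 ± 0.26, CM-like at 0.18 ± 0.45 and erythroid-like with all 5 cells at 0. The steps among these were smaller than the SDs of epicardial-like and CM-like cells. Gja4 made up 35.7% ± 30.98 of the summed TPM of the 4 connexins in endothelial-like cells of batch 1 and 6.96% ± 14.2 in batch 2, whereas Gja1 made up 53.2% ± 31.3 and 74.1% ± 27.1. All 10 endothelial-like cells with Gja4 also detected Gja1, but so did 21 of the 22 endothelial-like cells as a whole.

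Gja5 was rarer than Gja4 in endothelial-like cells. It was detected in 2 of 22, at 91.0 TPM in a cell of batch 1 and 34.8 TPM in a cell of batch 2, and both cells detected all 4 connexins. Its mean was 0.68 ± 1.70 in endothelial-like and 0.98 ± 1.70 in control CM-like cells, and the difference of −0.30 was 0.47 in batch 1 and −1.30 in batch 2. Epicardial-like (0.11 ± 0.22) and unnamed cells (0.01 ± 0.04) held less than 1 TPM in each cell, and erythroid-like cells held 0. The order of the first 2 classes does not exceed their spread.

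Gjc1 was found in each control class. It was detected in 13 of 22 endothelial-like cells (59.1%, 36.4 to 79.3), 6 of 13 epicardial-like, 3 of 5 erythroid-like and 2 of 8 unnamed control cells. Its mean was 2.89 ± 2.70 in endothelial-like cells, a difference of −0.05 from control CM-like cells (0.43 in batch 1, −0.15 in batch 2). Erythroid-like (2.08 ± 1.97), epicardial-like (1.73 ± 2.14) and unnamed cells (1.48 ± 2.18) followed, each step within the SD of the classes. Every endothelial-like cell with Gjc1 also detected Gja1, but so did 21 of the 22 endothelial-like cells as a whole.

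**Figure D4:**
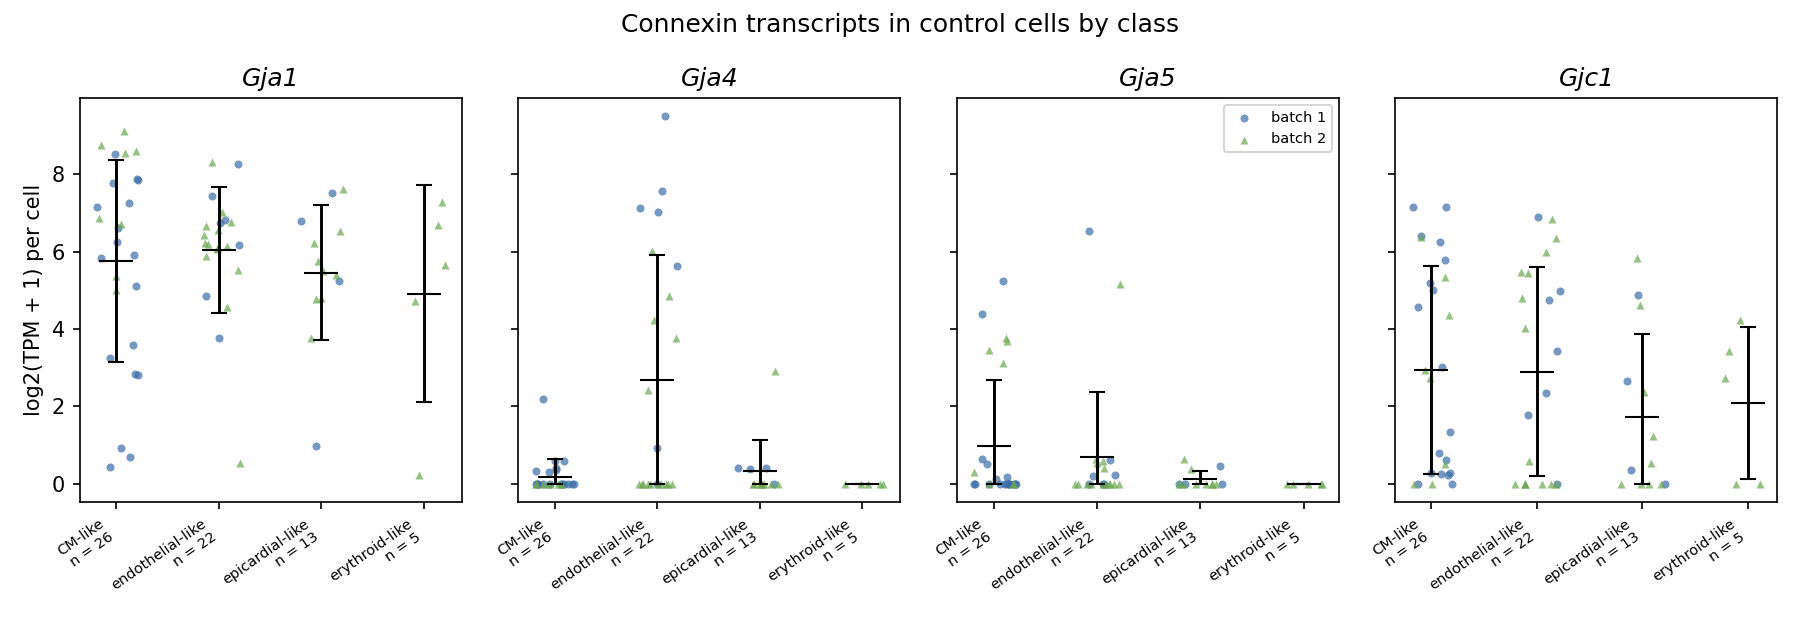
Level of each connexin as log2(TPM + 1) (vertical axis) in control cells of 4 classes (horizontal axis). Circles are cells of batch 1 and triangles cells of batch 2, and bars are the mean and 1 SD across cells, drawn no lower than 0. Gja1 is high in all 4 classes, Gja4 stands out in endothelial-like cells with means of 2.68 against 0.18 in CM-like cells, and Gja5 is above 1 TPM in 6 CM-like and 2 endothelial-like cells.

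Arterial and venous genes were described beside Gja4. The endothelial markers high in this class included Nfatc1, which the authors used as a marker of the endocardium. Whether these cells came from vessels or from endocardium was not tested. Of 12 arterial genes, 8 passed the limit in control endothelial-like and CM-like cells. Of these, 4 were higher in endothelial-like cells in both batches, namely the receptor Notch1 (by 4.19), its ligand Dll4 (2.15), its target Hey1 (2.58) and the arterial ephrin Efnb2 (2.31), and the cardiac repressor Hey2 was lower (by −1.38). Over all genes compared, 10.2% were higher and 5.34% lower by this measure. Below the limit on cells, Sox17 (1.27) and Acvrl1 (1.31) were also past 1 log2 unit in both batches and are not counted. The median over the 8 was 1.16, against 0.25 over all 13085 genes. Of 5 venous genes, 4 passed the limit and 3 were higher, Flt4 (3.84), Ephb4 (1.75) and Nr2f2 (1.60), with Nrp2 lowest at 1.20. The endothelial-like class thus held genes of both lists. Between cKO and control CM-like cells, 7 arterial and 3 venous genes passed the limit, and the netrin receptor gene Unc5b was the only one past 1 log2 unit in both batches, higher in cKO by 1.61 (1.10 and 2.54), where 2.61% of all genes were higher.

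The 10 endothelial-like cells with Gja4 detected a median of 6.5 of the 12 arterial and 2 of the 5 venous genes. The 12 cells without Gja4 detected a median of 6 and 3. The ranges overlapped, at 4 to 10 and 2 to 8 arterial genes. The median number of genes above 0 was 10238 in the cells with Gja4 and 8616 in those without. Cells with and without Gja4 were therefore not separated by these lists.

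The lists that follow surround the connexins in function. They are described by counts and medians, beside a median of 0.02 over all 15021 genes and, for the share past 1 log2 unit in both batches, 3.16% lower and 2.61% higher. Of 13 adherens and desmosome genes of the intercalated disc, the site where ventricular gap junctions gather, all 13 passed the limit. None was past 1 log2 unit in both batches, and the median difference was 0.65. The lowest was Pkp4, a plakophilin, at −1.05 (−0.74 and −1.55), and the highest was Jup, plakoglobin, at 1.88 (2.58 and 0.31). Cdh2, the cadherin that anchors the disc, differed by 0.53.

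Of 15 genes known as Cx43 partners or regulators of its turnover, 14 passed the limit. The median difference was 0.59. Dbn1, drebrin, which ties Cx43 to actin, was higher in cKO cells in both batches, by 1.58 (1.51 and 1.76), and was seen in 5 of 26 control and 32 of 66 cKO CM-like cells. The lowest was the kinase gene Prkca at −0.14. Tjp1, whose product ZO-1 binds the tail of Cx43, differed by 0.67. No gene of the list was lower past 1 log2 unit in both batches.

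Of 15 transcription factors known to act on cardiac connexin genes, 13 passed the limit, and the median difference was 0.30. Hand1, a factor of the left ventricle and its outer curvature, was lower by −3.48 (−2.14 and −5.79). It ran from 0 over a median of 83.9 to 426 TPM in control and from 0 over 0 to 207 TPM in cKO CM-like cells, so the ranges overlapped, and 17 of 26 and 11 of 66 cells detected it. Jun was the highest, by 1.51 (1.06 and 1.46). The others stood within 1 log2 unit in at least 1 batch. Nkx2-5 was higher by 0.59 pooled but 1.19 in batch 1 and −0.68 in batch 2.

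Of 12 genes of trabecular and fast-conducting muscle, the setting of Cx40, 10 passed the limit, with a median of −0.52. Cited1, a coactivator of the left ventricle, was the lowest at −3.46 (−2.12 and −6.26), and 23 of 26 control and 37 of 66 cKO CM-like cells detected it. Nppb, a natriuretic peptide, was the highest at 1.85 (1.17 and 2.27). Hand1, Cited1 and Gja5, which were lower in cKO cells, each had a higher mean in control CM-like cells of batch 2 than of batch 1, as Gja1 had. Jun (5.63 and 4.36) and Nppb (6.34 and 5.69), which were higher in cKO cells, did so too.

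The genes whose TPM followed each connexin most closely over all 143 cells were ranked by Spearman correlation among 16658 genes. These values describe cells that share a genotype, a class and a batch, and carry no p. For Gja1 they were the ribosomal protein genes Rpl13 (0.57), Rpl7a (0.54), Rps7 (0.54), Rps10 (0.54) and Rps16 (0.53). Within control CM-like cells these 5 dropped to between 0.22 and 0.50, and within cKO CM-like cells to between 0.23 and 0.45. Within the 22 control endothelial-like cells they were 0.06 and 0.31 for Rpl13 and Rpl7a and −0.17, −0.33 and −0.25 for Rps7, Rps10 and Rps16. The means of all 5 were lower in cKO than in control CM-like cells, from 11.4 to 10.8 log2(TPM + 1) for Rpl13.

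For Gja4 the nearest were Lyl1, Ccl2, Tnfaip2, Abi3 and Gngt2, at 0.47 to 0.48, and all 5 had higher means in endothelial-like than in CM-like cells. For Gja5 they were Eral1, Hspa12a, Cplx2, Gm25791 and B930036N10Rik, at 0.37 to 0.41. For Gjc1 they were Nhsl1, Gm3604, Abcc9, B430010I23Rik and Msl1, at 0.38 to 0.41. Among the connexins themselves, the correlations with Gja1 over all cells were 0.24 for Gja4, 0.24 for Gja5 and 0.21 for Gjc1. The correlation of Gjc1 with the number of genes above 0 in a cell was 0.39 over all cells and 0.11 within control CM-like cells, and that of Gja1 was 0.22 and 0.09. Within cKO CM-like cells it was higher, at 0.44 for Gjc1 and 0.30 for Gja1. The part of depth in the detection of either gene was not tested.

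Endothelial transcripts in CM-like cells were far below those of endothelial-like cells but not absent. In CM-like cells the summed TPM of 13 endothelial markers ran from 2.60 over 23.04 to 235 in control and from 2.76 over 34.1 to 439 in cKO. Pecam1 reached 1 TPM in 25 of 26 control and all 66 cKO CM-like cells, with medians of 3.87 and 6.69 TPM. Tek reached it in 2 and 3 cells, at up to 5.32 and 149 TPM, Emcn in 1 and 2 cells, and Cdh5 in no CM-like cell of either genotype. The medians of the sum and of Pecam1 were thus higher in cKO cells, and their part in the connexin differences was not tested. In endothelial-like cells the 15 cardiomyocyte markers summed to 158 over 883 to 35983 TPM, and the highest value is near the lowest CM-like cell at 36382. Without that 1 cell the endothelial-like differences were 0.31 for Gja1, 2.63 for Gja4, −0.30 for Gja5 and −0.10 for Gjc1.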

How the data were processed

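The deposited values are TPM. The authors ran Salmon with mm10 on paired-end Smart-seq2 reads and kept cells with a high mapping rate. They then left out cells whose GFP and tdTomato reporter levels did not match their genotype. The Salmon version and the annotation release are not given in the sources used here. Its 143 columns matched 143 of 170 labelled samples by title, and the other 27 were not analysed here. Depth is unknown. TPM of a cell summed to 996133 to 999999, so a few abundant transcripts lower all others. Amplified reads carried no molecular identifiers.

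Cells were clustered by Ward linkage on z-scored log2(TPM + 1) of 55 markers into 5 clusters (Python 3.11.15, SciPy 1.17.1), and clusters were named from markers. No doublet caller was run, as cells were picked by hand. Differences are between means of log2(TPM + 1), which understates low genes, for genes above 0 in more than 10 cells. Names in the text are the 4 connexins, other connexins detected in at least 5 cells, the lowest and highest of each list and those past 1 log2 unit in both batches, and the 5 nearest genes. Cdh2, Tjp1 and Nkx2-5 were added after their values were seen. Intervals are exact Clopper-Pearson, and a count of 0 allows 3 cells of the total. Steps were tested on simulated data. The members and lists were chosen with earlier results of these data known. Coordinates are from GENCODE on GRCm38. A few items that the naming rule would include are not reported here.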

Additional observations from a re-analysis of the deposited data

Results flagged for a closer look

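Gja1 also appeared in cKO cells outside the CM-like class, which the main comparisons did not use. In 3 cKO cells of the mitochondrial-rich, unnamed cluster, its mean was 3.01 log2(TPM + 1), against 2.58 in the 8 control cells of that cluster. The values of the 3 cells were 0, 1.45 and 211 TPM, and the highest control value was 111 TPM. The mean is above that of the control cells through 1 cell, so this is a value and no difference between the genotypes.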

How the results depend on the processing

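No paired analysis was possible because each genotype is 1 sample, no embryo is named, and what the leading number in the cell names stands for is not given in the sources used here. The batches are no replicates, and differences within each are in the text above. The difference of Gja1 between cKO and control CM-like cells kept its sign under all 13 alternatives, from −6.19 in batch 2 alone to −2.31 with a pseudocount of 10. Gjc1 (−1.62 to −0.56) and Gja5 kept theirs too, whereas Gja4 changed sign under 3. With 6 clusters each of these differences equalled its main value, so that setting could not change a sign. The settings of a batch alone repeat differences given above. As a log2 ratio of mean TPM, Gja5 stood at −5.93 and Gja4 at 1.34, and over all cells of each genotype Gja4 stood at −0.83. The higher Gja4 of endothelial-like cells held under all 9 alternatives, at 8.15 as a log2 ratio of mean TPM and 5.13 in batch 1 alone. The difference of Gja1 between endothelial-like and CM-like cells changed sign under 3 of 9, and those of Gja5 and Gjc1 under 2 each. The count of genes past 1 log2 unit in both batches was 867, and it was 1658 with a pseudocount of 0.1 and 242 with 10, the construction of which raises or damps low values. With 4 clusters, where the 11 unnamed cells joined the CM-like class, 148 genes were lower and 932 higher, against 475 and 392. Gja1 was among the lower genes in each of these counts. Of 56 alternatives for the 8 detected shares, 14 lay outside the interval of the share, most of them the level of TPM above 0 or 1 batch alone. The restriction by mitochondrial share and the removal of 1 endothelial-like cell were chosen after seeing the data.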
